A study of Mus musculus with 2 samples.

Results

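The genes described here make the heme, the membrane and the regulators of the red blood cell. They are 28 genes chosen by symbol for their roles in erythroid biology, with earlier results of these data known: 8 heme synthesis enzymes, 2 genes of iron supply, 10 genes of the red cell membrane and its skeleton, 4 other late red cell genes, and 4 regulators including the erythropoietin receptor. All 28 were found among the 38926 genes listed, 27 under their own symbol and Epb42 under its older symbol Epb4.2. Messenger RNA was measured in the pleuroperitoneal folds of wild-type embryos (embryonic day 12.5) on a mixed 129s/SvlmJ-C57/BL6J background. These paired folds of mesenchyme grow into the connective tissue of the diaphragm. The series holds 1 group of 2 libraries, replicates 2 and 1, with hand-dissected folds of 2 pairs pooled in each, so animals cannot be told apart within a library and there is no other tissue, stage or genotype to set the levels against. Values are means ± SD over the 2 libraries (n = 2) unless stated.

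Replicate 2 held 23255957 counts and replicate 1 26370253, of which the 28 genes held 19250 and 21514. The tissue label was checked with 8 genes of fold mesenchyme and mesothelium (Gata4, Wt1, Tbx5, Osr1, Zfpm2, Aldh1a2, Pdgfra and Tcf21), and 8 of 8 had at least 10 TPM (the deposited level, a count divided by gene length and brought to the same sum in each library) in both libraries. The labels describe no step that removes blood, and 7 of 8 globin genes had at least 1 TPM in both libraries. Intervals below are 95% exact binomial intervals of the counts and cover counting error only, which is a lower limit because reads were not tagged by molecule.

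Heme is built from glycine and succinyl-CoA along a fixed chain of enzymes, begun by an aminolevulinate synthase in the mitochondrion and ended there by ferrochelatase, which inserts iron. Every cell makes some heme for its cytochromes through Alas1, while red cell precursors use Alas2 and draw large amounts of iron through the transferrin receptor. At this stage of mouse development, nucleated primitive red cells from the yolk sac circulate through the embryo, and the fetal liver produces definitive red cells. Erythroid genes are widely activated by Gata1, Tal1 and Klf1, and Gata1 binds the letters GATA.

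Because many of the genes are known targets of GATA factors, the 250 bases before each RefSeq gene start (GRCm38.p6) were searched on both strands for GATA motifs, namely AGATAA or AGATAG as well as TGATAA or TGATAG. Windows were found for 22 of the 28 genes. At least 1 of the 4 motifs was present in 15 of their 27 windows (55.6%), against 26.5% of all 32851 windows. By gene, 15 of the 22 had a match, against 8039 of all 27025 genes with a window. By textbook knowledge 13 members are used mainly by blood cells (Alas2, Slc4a1, Rhag, Rhd, Epb42, Ermap, Kel, Icam4, Hemgn, Trim10, Trim58, Klf1 and Nfe2) and the other 15 also by other cells, a split drawn after the values were seen. A match was found for 11 of the 11 blood genes with a window and for 4 of the 11 others (Uros, Cpox, Epor and Tal1). Windows end at RefSeq starts, and the matches of Icam4, Hemgn and Uros lie inside the gene span of the deposited coordinates. The Klf-type motif CCNCNCCC was in 51.9% of the members' windows and in 45.9% of all windows. A match is a description of the letters and does not show a bound site. The sequences that follow, 5′ to 3′ on the strand of the gene and ending just before its first annotated base, are the stretches before the erythroid aminolevulinate synthase gene, both Rh genes and the regulator Klf1, each with 1 match in capitals, and before the broadly used enzyme gene Urod, which has none.
Alas2, chrX:150547167-150547374, plus strand: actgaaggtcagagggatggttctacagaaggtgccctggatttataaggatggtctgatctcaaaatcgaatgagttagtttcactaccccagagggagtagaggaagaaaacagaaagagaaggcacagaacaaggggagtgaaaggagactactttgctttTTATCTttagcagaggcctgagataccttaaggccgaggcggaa
Rhag, chr17:40810899-40811125, plus strand: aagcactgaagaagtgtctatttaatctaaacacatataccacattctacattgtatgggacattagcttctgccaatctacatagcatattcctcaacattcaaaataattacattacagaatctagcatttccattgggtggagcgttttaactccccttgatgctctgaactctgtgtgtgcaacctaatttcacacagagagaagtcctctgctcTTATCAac
Rhd, chr4:134864286-134864535, plus strand: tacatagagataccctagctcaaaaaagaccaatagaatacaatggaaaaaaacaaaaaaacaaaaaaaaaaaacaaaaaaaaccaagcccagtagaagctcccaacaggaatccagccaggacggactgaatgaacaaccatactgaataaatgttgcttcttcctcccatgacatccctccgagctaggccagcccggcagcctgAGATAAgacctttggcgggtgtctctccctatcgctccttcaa
Klf1, chr8:84901732-84901927, plus strand: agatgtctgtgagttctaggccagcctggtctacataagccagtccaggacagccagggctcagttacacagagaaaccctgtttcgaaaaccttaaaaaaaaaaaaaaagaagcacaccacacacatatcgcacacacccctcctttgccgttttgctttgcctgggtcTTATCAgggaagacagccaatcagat
Urod, chr4:116994414-116994663, minus strand: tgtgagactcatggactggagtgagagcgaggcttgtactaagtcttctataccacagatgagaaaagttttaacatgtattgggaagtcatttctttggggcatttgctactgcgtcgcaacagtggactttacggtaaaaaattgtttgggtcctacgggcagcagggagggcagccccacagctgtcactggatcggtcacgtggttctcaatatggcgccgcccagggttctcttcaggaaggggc

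Of the 28 genes 27 had at least 1 TPM in both libraries, where 44.4% of all listed genes and 63.8% of the 20386 protein-coding ones did. Mean levels ran from 0.229 TPM for Trim58 to 135 TPM for Alad. In both libraries 14 of the 28 genes had 10 TPM or more, as did 9505 of the 20386 protein-coding genes. The 13 blood genes had a median of 4.50 TPM and the 15 others of 29.8 TPM. The groups overlapped, since Alas2 and Slc4a1 among the blood genes stood above Ank1 and Uros, while Sptb, Epor and Tal1 of the other group were below 10 TPM in both libraries. The coefficient of variation between the libraries had a median of 5.46% over the 14 members at 10 TPM or more in both, against 4.22% over the 9505 protein-coding genes at that level. Over all 28 members, many of which rest on few counts, the median was 19.7%. Over the 12999 protein-coding genes at 1 TPM or more in both libraries it was 5.085%. In bulk tissue a lower number of red cells and less RNA per cell cannot be told apart.

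**Figure D1:**
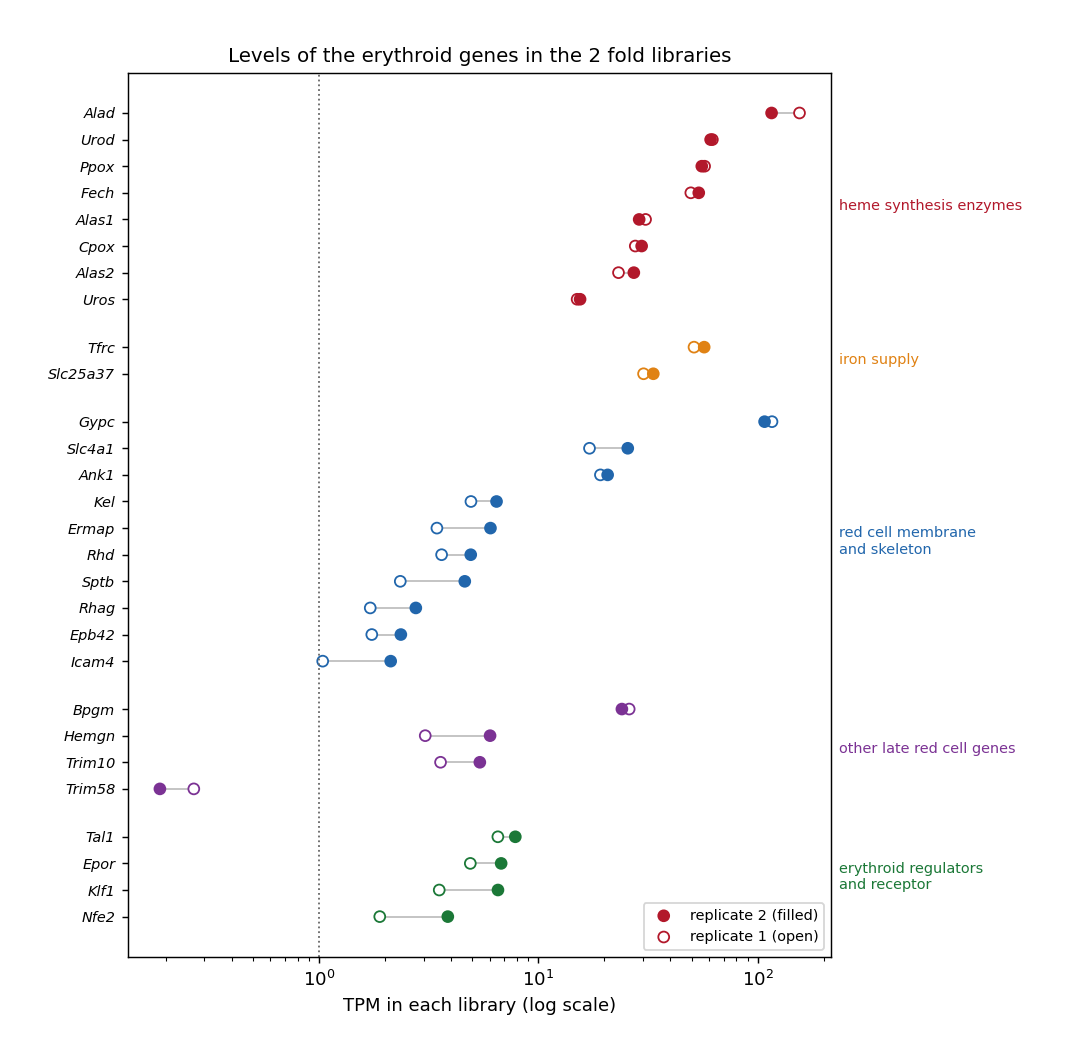
Level of each member in TPM (horizontal log axis) in replicate 2 (filled) and replicate 1 (open), grouped by role; the dotted line marks 1 TPM. Heme enzymes lie between 15.0 and 155 TPM in either library, while 7 of the 10 membrane genes and all 4 regulators lie below 10 TPM in both.

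The heme pathway was present from its first step to its last. Alas1, the aminolevulinate synthase of all cells (chromosome 9, 106233455 to 106247730), had 28.8 TPM in replicate 2 and 30.8 TPM in replicate 1. Alas2, the erythroid form on chromosome X (150547375 to 150570638), had 27.3 TPM in replicate 2 and 23.2 TPM in replicate 1. Per length, the Alas2 to Alas1 ratio of levels was 0.946 in replicate 2 and 0.753 in replicate 1. Apex2, a DNA repair gene on the opposite strand, shares 12.9% of the exon bases of Alas2. The Alas2 count may therefore include Apex2 reads or have lost reads in the shared bases, since the strand setting is not stated. Apex2 itself stood at 11.1 and 11.2 TPM in replicates 2 and 1.

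Alad, which joins 2 molecules of aminolevulinate into porphobilinogen (chromosome 4, 62509169 to 62519881), was the highest of all members, with 116 TPM in replicate 2 and 155 TPM in replicate 1. Urod, which removes carboxyl groups from uroporphyrinogen, had 61.0 TPM in replicate 2 and 62.1 TPM in replicate 1. Ppox, the protoporphyrinogen oxidase gene, had 55.6 and 57.3 TPM in replicates 2 and 1. These levels were close to that of Fech, the ferrochelatase gene, at 51.7 ± 3.04 TPM (53.9 in replicate 2 and 49.6 in replicate 1). B4galt3, a sugar transferase gene on the opposite strand, shares 17.5% of the exon bases of Ppox and stood at 29.7 and 32.3 TPM. Cpox, the coproporphyrinogen oxidase gene, had 29.6 TPM in replicate 2 and 27.7 TPM in replicate 1. Uros, which closes the porphyrin ring, was the lowest enzyme, with 15.5 TPM in replicate 2 and 15.0 TPM in replicate 1. In order of level, Alad was followed by Urod, Ppox and Fech, then by Alas1, Cpox and Alas2, then by Uros. Alas1 (29.8 ± 1.41 TPM) and Cpox (28.6 ± 1.35 TPM) lay within their spread of each other, as did Cpox and Alas2 (25.2 ± 2.87 TPM). Alas2 and Alas1 lay slightly further apart than the sum of their SDs, each of which rests on 2 libraries. Alas1 was the higher in both libraries, but by little in replicate 2 (28.8 against 27.3 TPM).

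Both genes of iron supply were well expressed. Tfrc, the transferrin receptor through which cells take up iron, had 57.0 TPM in replicate 2 and 51.3 TPM in replicate 1. Slc25a37, or mitoferrin 1, which carries iron into the mitochondrion, had 33.4 TPM in replicate 2 and 30.2 TPM in replicate 1. Its broadly used relative Slc25a28, mitoferrin 2, had 43.5 and 44.0 TPM in replicates 2 and 1.

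Among the membrane genes the level varied by more than an order of magnitude. Gypc, a glycophorin that anchors the red cell skeleton and is also made in other tissues, had 107 TPM in replicate 2 and 116 TPM in replicate 1. Slc4a1, the band 3 anion exchanger (chromosome 11, 102348824 to 102365280), had 25.6 TPM in replicate 2 and 17.1 TPM in replicate 1. Ank1, the ankyrin that ties band 3 to spectrin and that muscle and nerve also use, had 20.7 TPM in replicate 2 and 19.2 TPM in replicate 1. These 3 were the membrane genes at 10 TPM or more in both libraries.

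Sptb, the beta spectrin of red cells, also used by muscle (chromosome 12, 76580488 to 76710547), was far lower than its partner Ank1, with 4.62 TPM in replicate 2 and 2.35 TPM in replicate 1. Epb42, or protein 4.2, which links band 3 to ankyrin, had 2.36 TPM in replicate 2 and 1.74 TPM in replicate 1. Rhag, the Rh-associated glycoprotein, an ammonium channel, had 2.76 TPM in replicate 2 and 1.71 TPM in replicate 1. Its partner Rhd, the single Rh protein gene of the mouse, had 4.92 TPM in replicate 2 and 3.62 TPM in replicate 1. Each of these 4 had its larger value in replicate 2 (Sptb alone of them passed the test described with the ratios), and the counts behind Rhag (47 and 34) and Rhd (57 and 49) are small.

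Blood group genes were low as well. Kel, the Kell endopeptidase, had 6.45 TPM in replicate 2 and 4.93 TPM in replicate 1. Ermap, an immunoglobulin-like erythroid membrane protein known in humans as the Scianna antigen, had 6.05 TPM in replicate 2 and 3.45 TPM in replicate 1. Icam4, an adhesion molecule known in humans as the LW antigen, had 14 counts in replicate 2 and 8 in replicate 1, which gave 2.12 and 1.04 TPM. All of the annotated exon bases of Icam4 (100%) lie in an antisense transcript, Gm47079, which is not analysed here, so these few reads may belong to either.

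Late red cell genes outside the membrane differed widely in level. Bpgm, which makes the haemoglobin ligand bisphosphoglycerate, had 24.04 TPM in replicate 2 and 25.95 TPM in replicate 1. Hemgn, or hemogen, a nuclear protein of erythroid precursors, had 6.03 TPM in replicate 2 and 3.05 TPM in replicate 1. Trim10, a ring-finger gene of late erythroblasts, had 5.41 and 3.58 TPM in replicates 2 and 1. Trim58, a ubiquitin ligase gene linked to loss of the nucleus from mouse erythroblasts, was at the limit of detection, with 3 counts in replicate 2 and 5 in replicate 1, at 0.188 and 0.269 TPM. A floor of 3 counts corresponds to 0.188 TPM for Trim58 in replicate 2 and 0.161 TPM in replicate 1.

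All 4 regulator genes were detected at low levels. Tal1, a helix-loop-helix factor that endothelial cells also use, had 7.85 TPM in replicate 2 and 6.54 TPM in replicate 1. Epor, the erythropoietin receptor, had 6.77 TPM in replicate 2 and 4.90 TPM in replicate 1. Klf1, the zinc-finger activator of adult beta globin (chromosome 8, 84901928 to 84905295), had 6.55 TPM in replicate 2 and 3.53 TPM in replicate 1. Nfe2, the leucine-zipper factor shared with megakaryocytes (chromosome 15, 103248212 to 103255439), had 3.87 TPM in replicate 2 and 1.89 TPM in replicate 1. For comparison, Gata1 had 2.20 TPM in replicate 2 and 1.45 TPM in replicate 1 (39 and 30 counts).

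The libraries are repeats of the same tissue, and the ratio of replicate 2 to replicate 1 describes how far they differed in these genes. Counts were scaled by TMM factors (trimmed mean of M values, from edgeR) and compared by an exact two-sided binomial test with Benjamini-Hochberg adjustment over the 19433 genes that had 10 or more counts in the libraries together. It sets 1 library against another, not animals or conditions, and allows for no noise beyond counting. Of the 27 members tested, 7 were higher in replicate 2 at an adjusted p under 0.05, against 8.85% of all genes tested. In the other direction 2 were lower, against 8.65% of all genes tested. No member passed both this threshold and a ratio of 2-fold, which 0.71% of all genes did upward and 0.551% downward. The median log2 ratio of the members was 0.23, with 21 above 0 and 6 below, and that of all genes tested was -0.014, with 47.2% of them above 0.

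Of the 7 genes called higher, 3 belong to the membrane and 2 to the regulators. Sptb, with 408 counts in replicate 2 and 242 in replicate 1, had a log2 ratio of 0.94 (interval from 0.71 up to 1.17, exact binomial adjusted p = 2.66e-14). Slc4a1 had 909 and 710 counts, a log2 ratio of 0.54 (0.40 to 0.68, exact binomial adjusted p = 3.58e-12). Ermap had 233 and 155 counts and a log2 ratio of 0.77 (0.47 to 1.08, exact binomial adjusted p = 4.43e-06). These 3 encode a skeleton protein, the anion exchanger and a surface antigen of the red cell. Nfe2, with 84 and 48 counts, had a log2 ratio of 0.99 (0.46 to 1.54, exact binomial adjusted p = 0.00138). Hemgn had 110 and 65 counts and a log2 ratio of 0.94 (0.49 to 1.41, exact binomial adjusted p = 3.94e-04). Klf1, with 73 and 46 counts, had a log2 ratio of 0.85 (0.30 to 1.42, exact binomial adjusted p = 0.0136). Thus 2 of the 4 genes of the regulator group were called higher, and the remaining members, Epor at 0.43 and Tal1 at 0.23, had intervals that include 0. Tfrc was called higher at the small log2 ratio of 0.12 (0.037 to 0.19, exact binomial adjusted p = 0.0262).

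**Figure D2:**
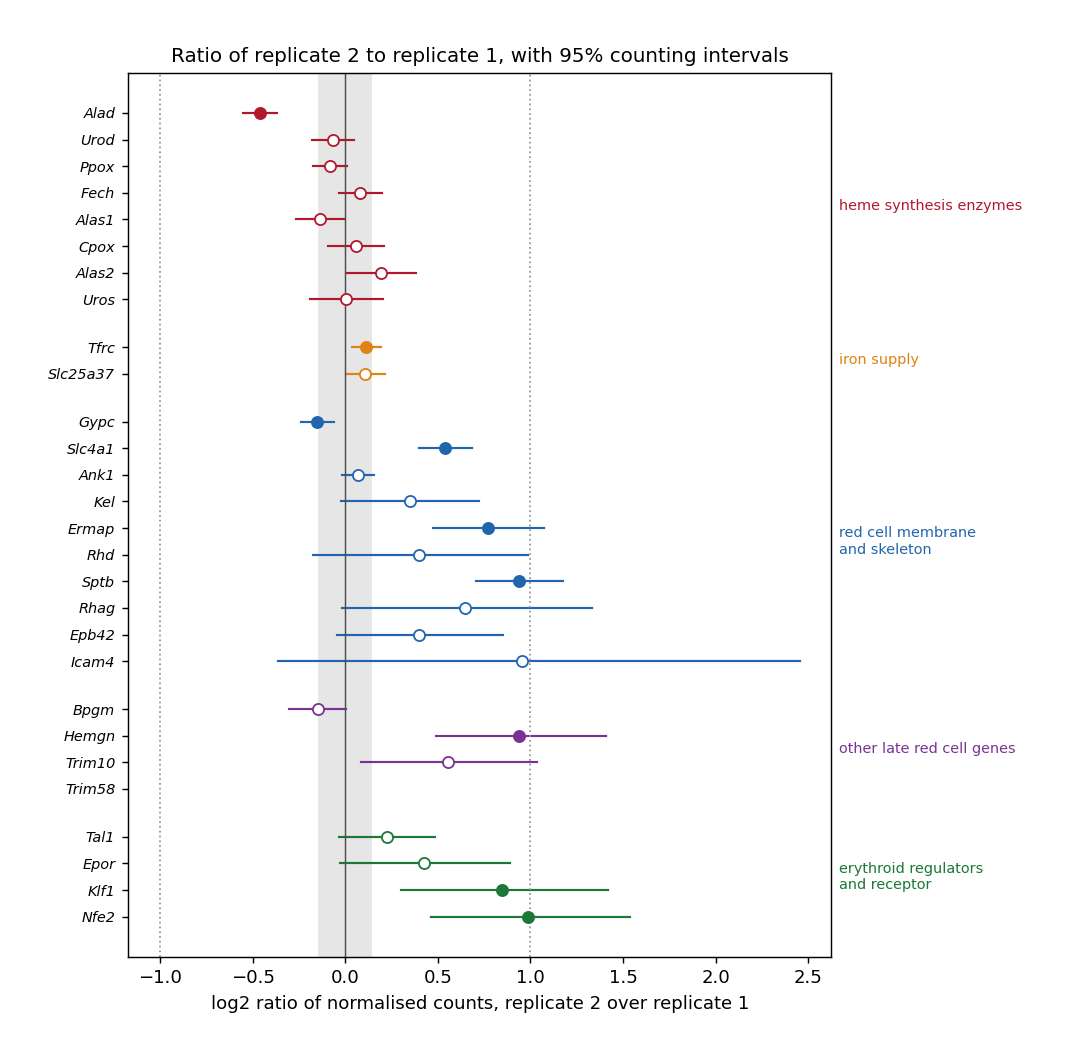
Log2 ratio of normalised counts, replicate 2 over replicate 1, per member, with 95% exact binomial intervals; filled points passed an adjusted p under 0.05, dotted lines mark 2-fold, and the grey band holds the middle 50% of all genes tested (-0.14 to 0.14). Heme enzymes other than Alad and Alas2 lie in the band, and 4 membrane or regulator genes (Sptb, Ermap, Nfe2 and Klf1) lie at 0.77 or above with filled points.

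The ratios of the heme enzymes lay on both sides of 0, 4 of 8 above and 4 below, with a median of -0.03. Alad was the one enzyme called, and it was lower, with 1574 counts in replicate 2 and 2462 in replicate 1 (log2 ratio -0.46, -0.55 to -0.37, exact binomial adjusted p = 2.29e-21). Alas2, the erythroid enzyme, had a log2 ratio of 0.19 (0.007 to 0.38, exact binomial adjusted p = 0.156), and Alas1 of -0.14 (-0.26 to -0.008, exact binomial adjusted p = 0.145). Gypc, with 1821 and 2298 counts, was the other member called lower, at -0.15 (-0.24 to -0.062, exact binomial adjusted p = 0.00766). The membrane group had a median log2 ratio of 0.47 with 3 genes called higher and 1 lower, and the regulators a median of 0.64. The 12 blood genes tested all had ratios above 0, with a median of 0.60 and 5 called higher, while the 15 genes used by other cells too had a median of 0.058, with 9 above 0, 2 called higher (Sptb and Tfrc) and 2 called lower. Of all genes tested 47.2% had ratios above 0, 8.85% were called higher and 8.65% lower. That split was drawn after the values were seen, the blood genes have fewer counts and so wider intervals, and the edgeR exact test described next called 0 of the 12 blood genes.

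Agreement between libraries of the same tissue is looser than counting error allows, and a test with the spread over all genes called fewer members. With a common dispersion fitted over both libraries by edgeR (a biological coefficient of variation of 7.99%), the edgeR exact test called Sptb alone (adjusted p = 8.86e-04), where it called 0.417% of all genes higher and 0.334% lower. Under that test Ermap had an adjusted p of 0.0611, Hemgn of 0.0713, Nfe2 of 0.142, Slc4a1 of 0.196 and Alad of 0.354 (edgeR exact test).

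**Figure D3:**
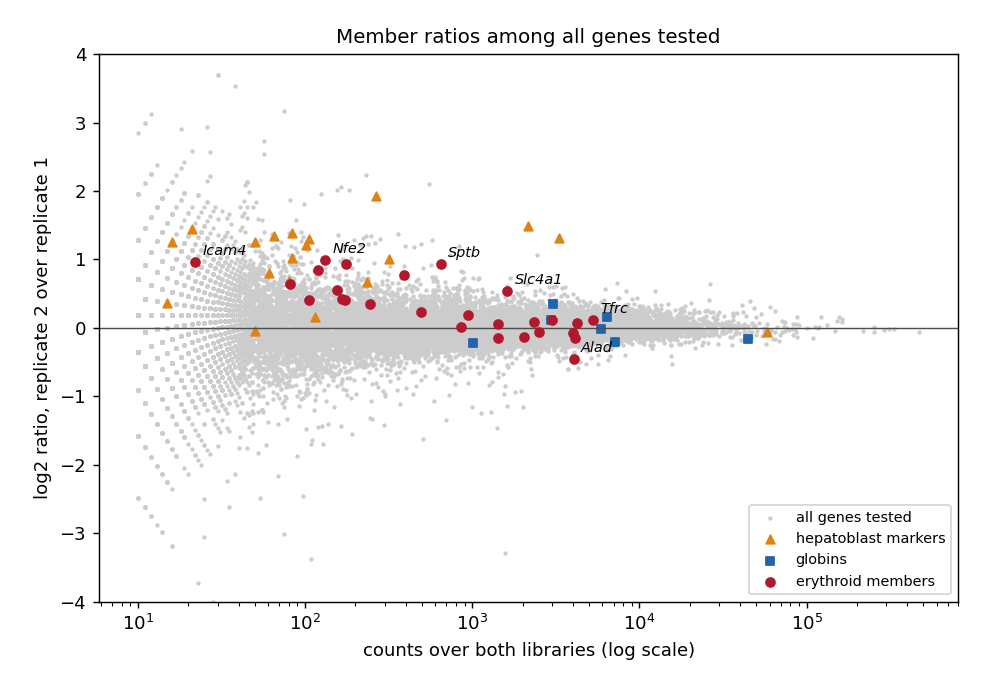
Log2 ratio of replicate 2 over replicate 1 against the counts over both libraries (log axis) for all genes tested (grey), the members (red circles), globins (blue squares) and hepatoblast markers (orange triangles); 15 genes lie outside the axis. The cloud widens at low counts, and Sptb, Slc4a1 and Alad lie toward its edges at their count while Icam4, with 22 counts, lies inside it.

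Red cell genes outside the 28 were compared in the same way. Of 20 further erythroid genes tested, 4 were higher, 1 of them by at least 2-fold, and 0 were lower, with a median log2 ratio of 0.18. Pklr, the pyruvate kinase of red cells and liver, had 122 and 34 counts in replicates 2 and 1, a log2 ratio of 2.01 (exact binomial adjusted p = 1.11e-13). The edgeR exact test also called Pklr higher. Tspo2 had 11 and 4 counts with a ratio of 1.54, not called, and the most abundant genes of this list, Ldb1 and Add1, which many cells use, had ratios of -0.005 and 0.006. Among the members, Ank1 had a log2 ratio of 0.07 (-0.018 to 0.16).

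Globins, which make up the bulk of red cell mRNA, had ratios on both sides of 0. Of 7 tested, the binomial test called 2 higher and 2 lower, with a median of -0.015, and the edgeR exact test called 0 in either direction. Hbb-y, the embryonic beta globin, had 4104 TPM in replicate 2 and 4462 TPM in replicate 1 (log2 ratio -0.16), and Hbb-bh1, another embryonic form, 97.5 and 111 TPM (-0.22, not called). Adult Hbb-bs had 508 and 444 TPM (0.16, called higher). Hba-a1 was called lower (523 and 585 TPM, -0.20) and Hba-a2 higher (331 and 253 TPM, 0.35), but these genes are nearly identical copies, as are Hbb-bs and Hbb-bt, so the split of reads between them is uncertain. Genes of iron and heme handling outside the members numbered 25, with 2 higher and 4 lower by the binomial test and a median of -0.037, and the edgeR exact test called 1 higher (Trf) and 0 lower. Trf, the transferrin that loads iron onto Tfrc and is made in liver, had 41.6 TPM in replicate 2 and 24.5 TPM in replicate 1 (log2 ratio 0.73, exact binomial adjusted p = 1.39e-22), while the ferritin genes Fth1 (1050 and 1210 TPM, -0.24) and Ftl1 (458 and 491 TPM, -0.14) were lower. In this list Tfr2 stood at 0.752 and 0.604 TPM with a ratio of 0.28, not called.

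**Figure D4:**
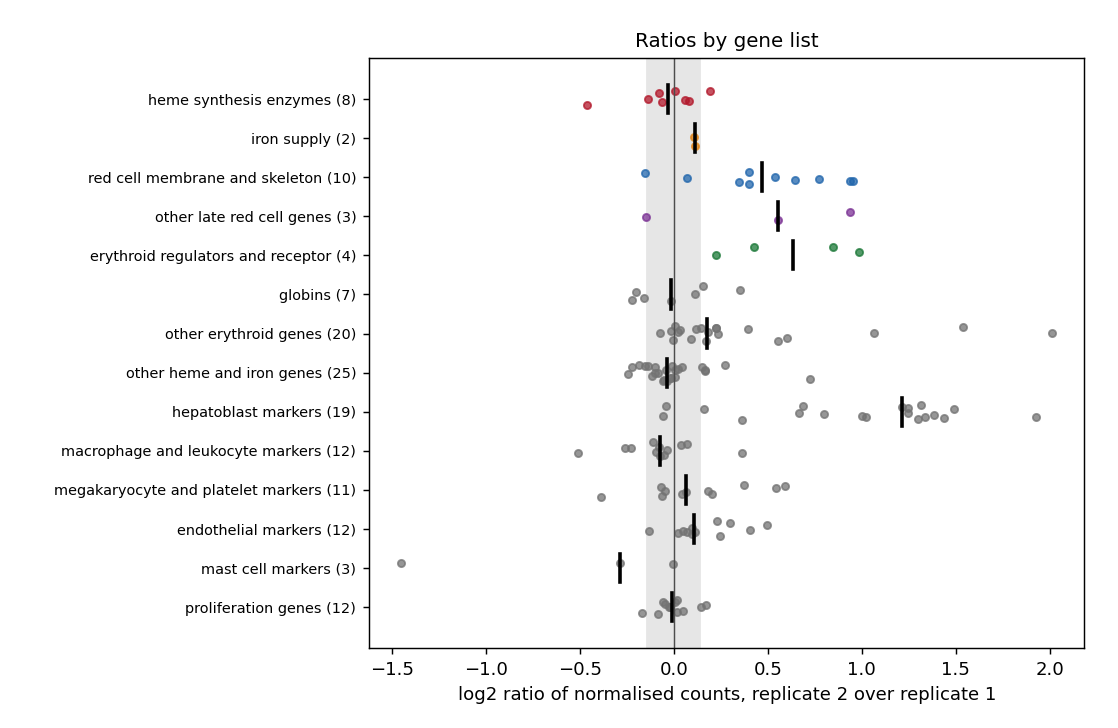
Log2 ratio of replicate 2 over replicate 1 for each tested gene, by list (number tested in brackets), with the median as a black bar; the grey band holds the middle 50% of all genes tested. Members are coloured by role and other lists are grey, and the medians run from -0.29 for mast cell markers to 1.22 for hepatoblast markers, with 0.64 for the erythroid regulators.

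Most markers of the fetal liver, where definitive red cells form, had ratios above 0. Of 19 hepatoblast markers tested, the binomial test called 11 higher in replicate 2, against 8.85% of all genes tested. Of these, 10 were past 2-fold, against 0.71% of all genes tested. The test called 1, Dlk1, lower, against 8.65% of all genes tested. The median log2 ratio was 1.22, and the edgeR exact test called 6 higher and 0 lower. Dlk1 is also used by embryonic mesenchyme (649 and 657 TPM), and without it the 19 markers left summed to 346 TPM in replicate 2 and 139 TPM in replicate 1. Afp had 150 TPM in replicate 2 and 58.5 TPM in replicate 1 (log2 ratio 1.32), Alb 104 and 35.9 TPM (1.49) and Apob 2.02 and 0.516 TPM (1.92), while Apoc3 was at 0 counts in both. The part of these markers in the ratios of the members was not tested.

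Other blood and vessel markers had medians nearer to 0 than the hepatoblast markers. The counts that follow are from the binomial test; the edgeR exact test called 1 gene of these 5 lists, Cpa3, which was lower. Of 12 macrophage and leukocyte markers 0 were higher and 2 lower (median -0.076), the summed level being 583 TPM in replicate 2 and 631 TPM in replicate 1; C1qb and Tyrobp were highest, and C1qa (-0.51) and Ptprc (0.36) had the largest ratios. Megakaryocyte and platelet markers, which share Nfe2 and Tal1 with red cells, had 2 of 11 higher and 0 lower (median 0.064). In that list Pf4 had 36.2 and 34.2 TPM in replicates 2 and 1 and a ratio of 0.042, Gp1ba a ratio of 0.59, not called, and Thbs1, which mesenchyme also makes, 0.54, called higher. Endothelial markers had 4 of 12 higher and 1 lower (median 0.11), with Cdh5 at 82.1 and 64.9 TPM (0.30), Kdr at 48.1 and 51.4 TPM (-0.13), Pecam1 at 0.50 and Flt1 at 0.41. For mast cells 3 of 8 markers could be tested and 1, Cpa3, was lower (2.75 and 7.39 TPM, -1.45), with Hdc at -0.29, Mitf at -0.006 and Mcpt4 and Tpsb2 at 0 counts in both. Proliferation genes had 2 of 12 higher and 2 lower (median -0.008), among them Mki67 at 0.17, Mcm6 at -0.17 and Top2a at 0.017. The part of each of these lists in the members' ratios was not tested.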

How the data were processed

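Polyadenylated RNA of 2 libraries was analysed. Reads were aligned and counted by the authors; STAR 2.4.0a, SAMtools 1.3, featureCounts and the build mm9 are named in the submitters' processing notes, and the strand setting is not stated there. The deposited coordinates were compared with GENCODE M21 (GRCm38): 22 of the 28 members matched the gene or a transcript exactly and the others overlapped it, so positions are given as the files list them, on GRCm38. The deposited counts are raw, and the deposited TPM values, computed by the authors, equal count over length scaled to a fixed sum (largest difference 4.7e-11).

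Ratios were log2 of counts plus 0.5, scaled by TMM factors (0.9989 for replicate 2 and 1.0011 for replicate 1; edgeR 4.0.16, R 4.3.3). Genes with 10 or more counts in total entered an exact binomial test with Benjamini-Hochberg adjustment, which was tested on simulated data. With counting error alone and a 1.5-fold change, the binomial test called 11 unchanged genes. With spread between libraries added it called 4383 unchanged genes, and the edgeR exact test called 1. That spread was drawn from the same common dispersion that the edgeR exact test uses, so its few false calls were built in. With that spread the edgeR exact test called 22.0% of genes changed 1.5-fold, against 95.0% for the binomial test. Of genes changed 2.5-fold the edgeR exact test called 98.5%. With 1 library on each side, quasi-likelihood tests have no residual degrees of freedom. Alternatives were DESeq2 1.42.0 size factors, library totals, other filters and prior counts, the edgeR exact test with a common dispersion, and TPM without features under 200 bp. Members sharing at least 10% of their GENCODE exon bases with another gene are named. The labels call the libraries biological replicates without naming litters, so p-values measure only the difference between these 2 libraries.

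All members are named. Of each other list, the 2 genes with the highest mean TPM and the 2 with the largest ratio in size are named; Gata1, Slc25a28, Hbb-bs, Hba-a1, Afp and other genes outside that rule were chosen after their values were seen. The members and lists were chosen with earlier results of these data known. Some genes of the other lists are not reported here. Epb42 and 3 list genes were matched through RefSeq synonyms. Promoter sequences are from RefSeq (GRCm38.p6).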

Additional observations from a re-analysis of the deposited data

How the results depend on the processing

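The direction of every member's ratio and the calls of the exact binomial test were the same with DESeq2 size factors and with library totals for all 27 members tested. The number called higher was 7 and the number called lower 2 under each normalisation and filter tried, and also without the 3 members that share exon bases (Alas2, Ppox and Icam4), an alternative chosen after seeing the data. With the edgeR exact test and a common dispersion, members called higher fell to 1 and members called lower to 0, and over all genes the counts were 81 higher (1719 with the binomial test) and 65 lower (1680). That test adds the spread over all genes to the counting error and kept 1 of the 9 calls, Sptb. The median log2 ratio of the members lay between 0.19 and 0.29 in all 7 alternatives. At a threshold of 5 TPM, 15 members passed in both libraries instead of 27; leaving out either library left 27 at 1 TPM. Leaving out features under 200 bp raised every TPM by the same factor, 1.1156 in replicate 2 and 1.1169 in replicate 1. Ratios cannot be computed without a replicate. No paired analysis was possible because the series has a single group. Depth limits the low members: the interval of the log2 ratio of Icam4 (-0.36 to 2.45) holds both no difference and 2-fold, and Trim58 had too few counts to be tested.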
